A study of Homo sapiens with 8 samples.

Results

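The RNA levels of A549 cells were used to separate genes that moved in opposite senses on gain and on loss of a long non-coding RNA, AFAP1-AS1, from genes that moved only on loss. A549 is a long-established line grown from a human lung adenocarcinoma. For each gene the gain effect was overexpression minus vector control, the loss effect was knockdown minus knockdown control, and the quantity of interest was the gain effect minus the loss effect. All effects are differences of group means on a log2(FPKM + 1) scale, where FPKM is the fragment count scaled by transcript length and library size. The table held 17056 genes, and the 10648 with a mean of at least 1 FPKM over all libraries were compared. SLAMF7 (mean 0.9987 FPKM) and MYPN (0.9984) lay just outside that limit, and WDR31 (1.0019) and ZSCAN12 (1.0029) just inside.

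There were 8 libraries in 4 groups of 2. They were A549 with vector, A549 overexpressing AFAP1-AS1, A549 given the knockdown control (titled ASONC) and A549 with AFAP1-AS1 knocked down (titled ASO). No overexpression construct, knockdown sequence, dose, time or clonality is named in the labels. Nor do they place the replicates in separate cultures, so each p-value rests on a spread between libraries that may be only technical. The gain and loss effects share no library. The level of AFAP1-AS1 is not analysed here and gave no check of the labels.

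Each library held between 33155584 and 36953674 recovered reads, and r between replicates, across genes, was 0.9973 to 0.9977. The knockdown control libraries differed from the rest in listing fewer genes at 0, namely 1435 and 1341, where the other 6 listed 2205 to 2327. With limma, 68.6% of the tested genes were called between the knockdown control and the vector control, and 62.9% between knockdown and the vector control. Every loss effect below rests on those control libraries, so the level in the vector libraries is given beside it for many, though not all, of the genes named. The summed level of 17 lung epithelial markers ran from 6661.09 to 7150.31 FPKM over the libraries, mostly from KRT7, KRT8, KRT18, AKR1B10 and ALDH1A1. Within that sum the members moved in both senses. From vector to knockdown control the mean of KRT7 went from 1007.7 to 1335.66 FPKM and that of ALDH1A1 from 1998.92 to 1758.67. CDH1 went from 3.82 to 1.14 FPKM. The surfactant genes SFTPB and SFTPC did not exceed 0.02 FPKM, NKX2-1 did not exceed 0.33 and EPCAM 0.86. The summed level of 6 leukocyte markers was 52.69 to 54.64 FPKM in the vector and overexpression libraries, 97.13 to 97.38 in the knockdown control and 68.07 to 69.49 in the knockdown, mostly from CD68, while PTPRC, the common leukocyte antigen, was at 0.0 FPKM in every library when given to 2 decimals.

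Interferons are secreted antiviral proteins. Their receptors signal to a transcription factor complex that contains IRF9 and binds a promoter element, the interferon-stimulated response element (ISRE), and turn on interferon-stimulated genes such as the IFIT family. Immediate early genes such as FOS and EGR1 encode transcription factors that are switched on within minutes of growth factor or stress signals.

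The difference of effects was called for 1087 genes, 10.2% of those tested, at a Benjamini-Hochberg adjusted p below 0.05 in limma. It was above 0 for 659 genes (6.19%) and below 0 for 428 (4.02%), and 26.4% of genes had an unadjusted p below 0.05. Which sense was the more frequent depended on the scaling: 799 genes were above 0 and 913 below with voom on recovered reads, 556 and 600 with median-of-ratios scaling, and 550 and 763 when FPKM were rescaled to TPM. The effects behind it were unequal in number. Overexpression alone called 7 genes (0.0657%), all higher, and 738 (6.93%) at an unadjusted p below 0.05. Knockdown called 2369 genes (22.2%, or 35.5% at an unadjusted p below 0.05), with 1204 higher (11.3%) and 1165 lower (10.9%). The libraries of overexpression lay wholly above or wholly below those of vector in 35.1% of tested genes. Those of knockdown lay so against their control in 62.5%. With so few libraries a group, such separation is frequent by chance alone, so neither share is a share of genes that moved.

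The called genes were then sorted by what each effect did. In 7 genes both effects were called and opposite, and all 7 were higher on overexpression and lower on knockdown. In another 136 genes the effects were opposite, with a single effect called and the other at an unadjusted p below 0.05. Of these, 116 were higher with overexpression and lower with knockdown, and 20 were the reverse (0.188% of all genes tested). Together the opposite genes made up 1.34% of all genes tested. The largest class held 860 genes (8.08%) in which the knockdown effect was called and the overexpression effect had an unadjusted p of 0.05 or more. Their differences were above 0 in 481 genes (4.52%) and below 0 in 379 (3.56%). With limma 0 genes had a called overexpression effect alone, 1 did with voom on recovered reads, and 16 had an overexpression effect at an unadjusted p below 0.05 and a knockdown effect that was not. A further 15 genes moved in the same sense in both comparisons by unequal amounts, and in 69 neither effect was called. A called difference favours opposite signs, so the 15 cannot be weighed against the opposite genes. Of genes with a called knockdown effect, 56 were lower in both comparisons and 29 higher in both, at an unadjusted overexpression p below 0.05. In the opposite senses the counts were 123 higher on overexpression and 20 lower. The classes were cut from these same values, so their medians describe the cut. SC5D, with an overexpression p of 0.0496, lay just inside the opposite class and NBN, with 0.0505, just outside.

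**Figure D1:**
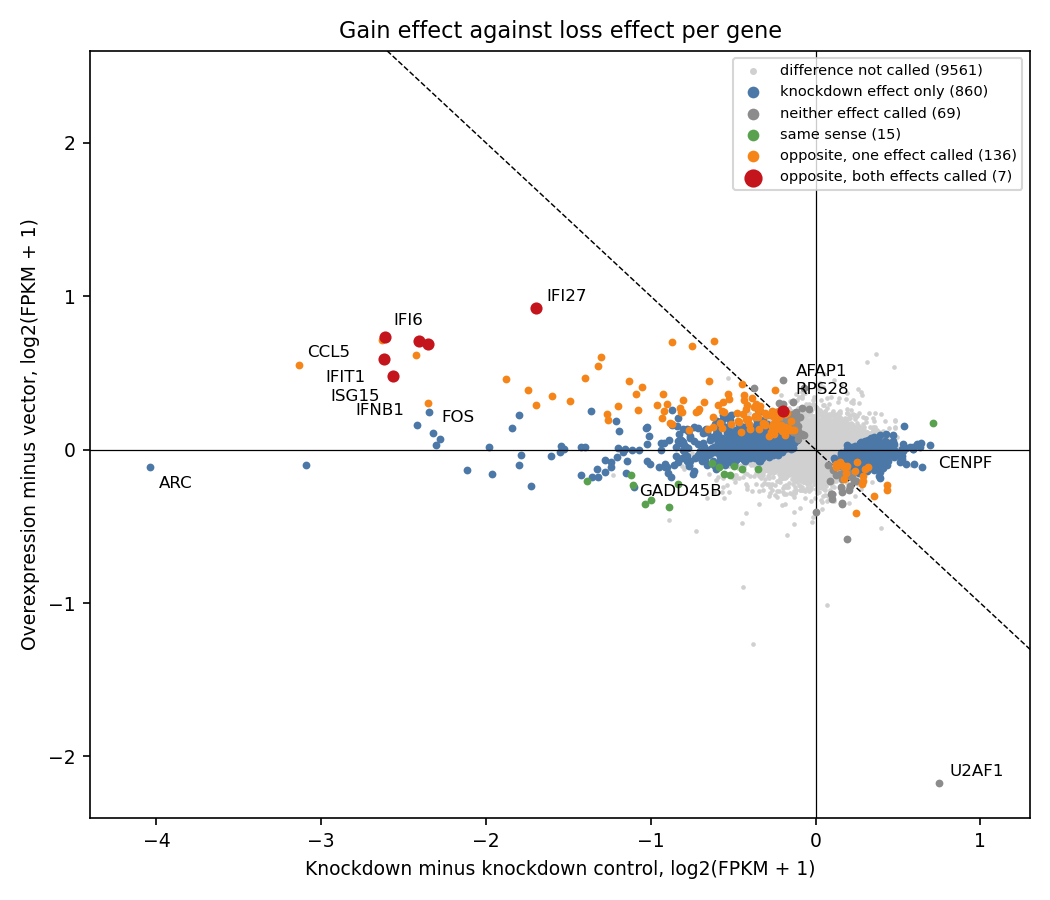
Each point is a gene, with the knockdown effect on the horizontal axis and the overexpression effect on the vertical axis, both on the log2(FPKM + 1) scale; the dashed line marks equal and opposite effects. The 7 genes with both effects called are in red and 6 of them lie at the upper left, while the 860 genes in blue spread along the horizontal axis.

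Of the 7 genes called in both comparisons, 6 are interferon-stimulated, namely IFI6, IFIT1, IFIT2, ISG15, IFIT3 and IFI27. The promoters of 5 of them are shown because each carries the ISRE core, and that of IFIT2 was not searched. Each sequence is from RefSeq (GRCh38.p14), from 250 bases before to 50 bases after the gene's start, 5′ to 3′ on the gene's strand. Capitals mark each match, on either strand, to the core of the ISRE, which was searched as GAAA, any 2 bases and GAAA again. The windows are chr1:27672143-27672442 on the minus strand for IFI6, chr1:1013247-1013546 on the plus strand for ISG15, chr10:89392373-89392672 on the plus strand for IFIT1, chr10:89327747-89328046 on the plus strand for IFIT3 and chr14:94110486-94110785 on the plus strand for IFI27.
IFI6 promoter: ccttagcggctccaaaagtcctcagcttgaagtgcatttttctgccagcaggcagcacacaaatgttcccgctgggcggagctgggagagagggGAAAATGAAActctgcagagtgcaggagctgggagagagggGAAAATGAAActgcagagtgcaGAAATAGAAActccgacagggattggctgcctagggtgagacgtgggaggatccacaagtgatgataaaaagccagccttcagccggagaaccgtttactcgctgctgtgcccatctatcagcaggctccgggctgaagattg
ISG15 promoter: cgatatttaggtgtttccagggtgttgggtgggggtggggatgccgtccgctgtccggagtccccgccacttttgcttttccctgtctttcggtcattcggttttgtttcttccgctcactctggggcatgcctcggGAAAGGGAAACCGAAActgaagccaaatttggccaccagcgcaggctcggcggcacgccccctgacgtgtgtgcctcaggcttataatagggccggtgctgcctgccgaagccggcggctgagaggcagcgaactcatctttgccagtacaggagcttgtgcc
IFIT1 promoter: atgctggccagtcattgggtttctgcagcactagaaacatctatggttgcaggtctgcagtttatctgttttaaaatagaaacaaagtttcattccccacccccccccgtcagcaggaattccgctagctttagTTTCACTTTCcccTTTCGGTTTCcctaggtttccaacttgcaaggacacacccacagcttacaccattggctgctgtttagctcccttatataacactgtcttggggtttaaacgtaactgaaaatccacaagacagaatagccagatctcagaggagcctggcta
IFIT3 promoter: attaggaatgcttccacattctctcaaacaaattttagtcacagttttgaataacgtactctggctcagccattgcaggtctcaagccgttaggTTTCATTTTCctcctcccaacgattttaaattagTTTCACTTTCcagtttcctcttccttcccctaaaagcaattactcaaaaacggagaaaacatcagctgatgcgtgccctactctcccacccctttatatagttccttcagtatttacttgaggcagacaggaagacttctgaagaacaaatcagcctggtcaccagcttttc
IFI27 promoter: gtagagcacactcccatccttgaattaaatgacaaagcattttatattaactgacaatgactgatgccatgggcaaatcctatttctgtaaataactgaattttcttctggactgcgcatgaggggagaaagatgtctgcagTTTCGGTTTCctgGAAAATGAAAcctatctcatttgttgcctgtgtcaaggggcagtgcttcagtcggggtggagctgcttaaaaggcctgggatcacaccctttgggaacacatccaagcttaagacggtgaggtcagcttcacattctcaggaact

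Matches began 156, 115 and 93 bases before the start in IFI6, 113 and 107 in ISG15 (overlapping each other), 116 and 103 in IFIT1, 156 and 122 in IFIT3, and 108 and 95 in IFI27. A promoter entry was found for 97 of the 123 opposite genes with a difference above 0, and 31 of them held a match (32.0%). The share was 6.96% of 388 promoters among genes with the knockdown effect alone and a difference above 0, 2.83% of 318 with a difference below 0, and 2.61% of 8702 promoters over all genes tested. None of the 18 promoters of opposite genes with a difference below 0 held one. Among the opposite genes above 0, those with a match had a median difference of 1.06 and those without 0.58. The 10 letters in a window of 300 bases describe the sequence only, and say nothing about binding. The cyclic AMP response element TGACGTCA was searched in the same way. It was in 6.19% of the opposite promoters above 0, 4.64% of those with the knockdown effect alone above 0 and 3.57% of all tested. The serum response element, searched as CCWWWWWWGG where W is A or T, was in 3.09%, 1.8% and 1.0% of the same sets. Those 3.09% were 3 of 97 promoters.

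IFI6, a mitochondrial and endoplasmic reticulum protein that restrains cell death and some viruses, had 30.4 and 32.9 FPKM in the vector libraries, 49.8 and 56.9 with overexpression, 70.4 and 67.9 in the knockdown control and 10.4 and 10.5 in the knockdown. The groups did not overlap, the knockdown was the lowest of the 4, and overexpression stood between its own control and the knockdown control. Its difference of effects was 3.35 ± 0.09 (log2, SE), from a gain effect of 0.73 and a loss effect of -2.61 (limma adjusted p = 7.26e-10 for the difference). In bulk RNA, fewer cells with a transcript and less of it per cell cannot be told apart. ISG15, a ubiquitin-like protein that is joined to other proteins, had the smallest p of the 7. It stood at 35.8 and 34.9 FPKM with vector, 51 and 48.3 with overexpression, 77.6 and 77.5 in the knockdown control and 12.5 and 12 in the knockdown, a difference of 3.04 ± 0.07 (limma adjusted p = 1.4e-10).

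The 3 IFIT genes belong to the same interferon-stimulated family. IFIT1 had 12.7 and 13.6 FPKM with vector, 19.4 and 21.2 with overexpression, 20.3 and 21.2 in the knockdown control and 2.73 and 2.36 in the knockdown. Here the overexpression and knockdown control levels overlapped, and knockdown minus vector was -2.0 on the log2 scale. IFIT2 ran from 11.7 and 10.9 to 18.7 and 19.5 FPKM on overexpression, and from 22.4 and 20.9 to 3.11 and 3.45 on knockdown. IFIT3 ran from 15.6 and 14.9 to 25 and 25.3 FPKM on overexpression, and from 20 and 19.2 to 3.2 and 2.9 on knockdown. In IFIT3 the overexpression libraries were the highest of all 8. The differences of effects were 3.21 ± 0.10 for IFIT1, 3.11 ± 0.09 for IFIT2 and 3.04 ± 0.08 for IFIT3 (log2, SE).

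IFI27, a small interferon-induced mitochondrial protein, had the largest gain effect of the 7, at 0.92 (95% interval 0.67 to 1.18). Its levels were 4.69 and 6.69 FPKM with vector, 11.4 and 11.7 with overexpression, 8.01 and 9.06 in the knockdown control and 1.86 and 2.03 in the knockdown. The seventh gene, RPS28, encodes a protein of the small ribosomal subunit and differed from the others in size and in order. It had 111 and 115 FPKM with vector, 135 and 135 with overexpression, 182 and 173 in the knockdown control and 156 and 152 in the knockdown, so that the knockdown stood above the vector control. Its difference was 0.45 ± 0.05 (limma adjusted p = 0.000309). Ribosomal protein genes have near-identical processed copies, so counts of RPS28 are uncertain. Its promoter held no ISRE match.

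**Figure D2:**
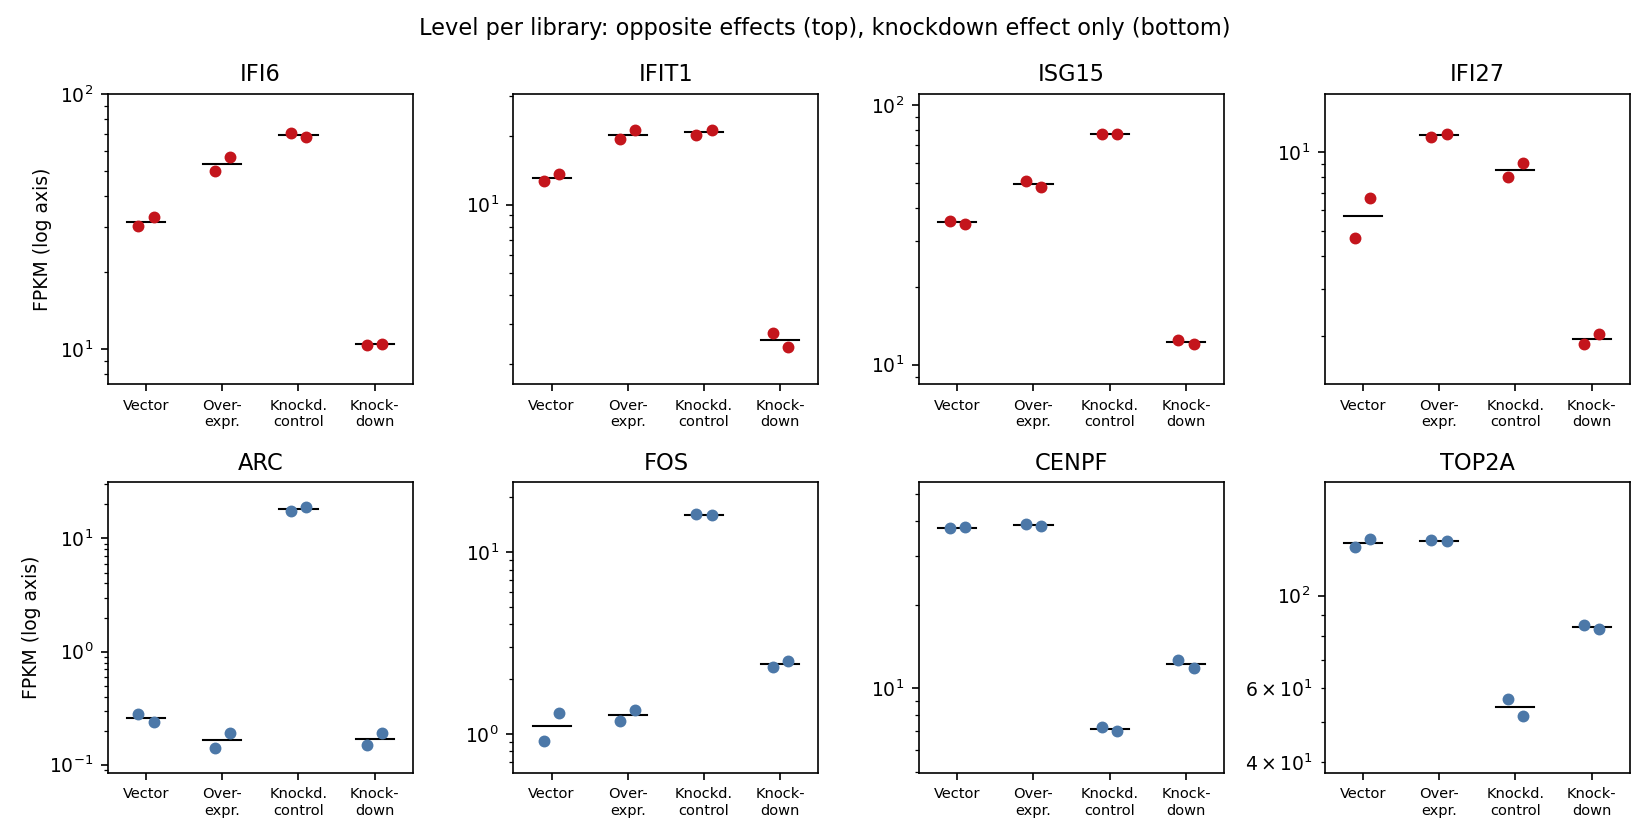
FPKM per library on log axes for 4 genes with opposite effects (top, red) and 4 with the knockdown effect alone (bottom, blue); points are libraries and bars the mean of the 2. In the top row overexpression lies above vector and knockdown is lowest, as for IFI6 at 10.4 and 10.5 FPKM, while in the bottom row vector and overexpression lie together and the knockdown control is the extreme group, as for ARC at 17.5 and 19.

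Opposite did not mean equal. The sum of the effects, which is 0 when a gene moves by the same amount each way, was called for 946 genes in all (8.88%) and for 6 of these 7 genes, each time in the direction of the loss effect. The sum was -1.88 ± 0.09 for IFI6 (limma adjusted p = 2.2e-07) and -0.77 ± 0.17 for IFI27 (limma adjusted p = 0.0145). It was 0.05 ± 0.05 for RPS28 and not called (limma adjusted p = 0.595). The gain effect supplied 21.9% of the difference in IFI6, 15.7% in ISG15, 35.3% in IFI27 and 55.9% in RPS28. The median share was 35.3% in the 136 genes with a single called effect, and the sum was called for 41 of them. In the 860 genes with the knockdown effect alone the median share was 8.3%, and the sum was called for 481.

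The interferon-stimulated list had gain effects above 0 and loss effects below 0 in every tested member. All 45 tested members had a called difference above 0, against 6.19% of all genes. Of these, 37 were in the opposite classes (1.16% of all genes tested were opposite and above 0) and 8 had the knockdown effect alone. The gain effect was above 0 in 45 of 45 members, from 0.04 to 0.92, with a median of 0.26 against 0.00 for all genes tested. The loss effect ran from -2.62 to -0.22, with a median of -0.84 against 0.02. For the gain effect alone 6 were called and 37 had an unadjusted p below 0.05 (4.23% of all genes were higher at that level and 2.7% lower). Earlier results of these data had already shown this list moving in both comparisons.

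Beyond the genes called in both comparisons, the list held antiviral effectors and antigen-processing genes. OASL, a relative of the 2′-5′ oligoadenylate synthetases, had a difference of 3.04 ± 0.17, and MX1, a GTPase that traps viral nucleoproteins, 2.34 ± 0.13. RSAD2, an enzyme that makes a chain-terminating nucleotide, had 1.28 and 1.25 FPKM with vector, 1.92 and 2.01 with overexpression, 2.93 and 2.96 in the knockdown control and 0.142 and 0.211 in the knockdown. PSMB9, an immunoproteasome subunit, ran from 12.3 and 13.2 to 15.4 and 17.1 FPKM on overexpression, and from 22 and 26 to 17.1 and 15.5 on knockdown. Its knockdown level therefore stood above vector, by 0.33, although the effects were opposite. The peptide transporter gene TAP1 (difference 0.66) and PSMB8 (0.61) were of similar size. The members with the knockdown effect alone were IFITM2, IFITM3, ISG20, PARP14, TRIM21, EIF2AK2, ADAR and B2M, with gain effects between 0.04 for B2M and 0.19 for IFITM3.

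The proteins that carry the interferon signal divided between the classes. IRF9, the DNA-binding subunit of the complex that binds the ISRE, had 22.7 and 24.1 FPKM with vector, 30.5 and 28.5 with overexpression, 40.8 and 37.5 in the knockdown control and 14.1 and 12.5 in the knockdown, a difference of 1.81. In IRF7, which amplifies interferon production, the knockdown effect of -2.34 was called and the gain effect was 0.25 (95% interval -0.09 to 0.58). STAT2, IRF1 and SOCS1 also had a called difference above 0 with the knockdown effect alone. The cytosolic RNA sensors DDX58 (difference 1.46), IFIH1 (1.95) and ZNFX1 (0.83) were opposite. Among 11 tested sensing genes TBK1, a kinase upstream of IRF3, was the only member called below 0, at -0.43.

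The ligands split in the same way. IFNL1, a type III interferon, was read 11 and 27 times with vector, 53 and 46 with overexpression, 156 and 160 in the knockdown control and 3 and 1 in the knockdown. The 4 groups did not overlap, and its difference was 3.35 ± 0.19 (limma adjusted p = 5.32e-07). IFNB1, the type I interferon beta, was read 8 and 8 times with vector, 16 and 10 with overexpression, 169 and 159 in the knockdown control and 7 and 5 in the knockdown. Its difference was 2.57 ± 0.15, its gain effect 0.16 (95% interval -0.07 to 0.39), and its knockdown level differed from vector by -0.08. At such counts the log2(FPKM + 1) scale understates the folds. Receptor subunits were not called: IFNAR1 had a difference of -0.16 and IFNAR2 of 0.00.

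CCL5, a chemokine that draws T cells, had the largest difference among the opposite genes, at 3.68 ± 0.16 (limma adjusted p = 6.78e-08). It had 3.81 and 3.36 FPKM with vector, 5.82 and 5.59 with overexpression, 13.9 and 15 in the knockdown control and 0.534 and 1.02 in the knockdown. Of 21 tested NF-kB targets and chemokines, 12 had a called difference, all above 0 (6.19% of all genes were), and 7 did without a filter. CCL5, CCL2 and CXCL8 were opposite and the other 9 had the knockdown effect alone, among them CXCL1, CXCL2, TRAF1 and NFKB2. CXCL8, the neutrophil chemokine, had 12.5 and 12.8 FPKM with vector, 14.7 and 16 with overexpression, 39.3 and 41.5 in the knockdown control and 31.4 and 31.8 in the knockdown, so both knockdown-side groups lay far above the vector side.

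An opposite gene could have a knockdown level close to vector, as had TAP1 above, at -0.12 from vector, and RRAD outside the interferon list. RRAD, a small GTPase that inhibits calcium channels, had 0.989 and 0.72 FPKM with vector, 1.41 and 1.16 with overexpression, 9.78 and 8.5 in the knockdown control and 1 and 0.975 in the knockdown. Knockdown minus vector was 0.10 for RRAD. Of the 123 opposite genes with a difference above 0, 37 were interferon-list members and 52 were in any of the gene lists. The 20 opposite genes with a difference below 0 were smaller, with a median of -0.37, and 0 of them were interferon-list members. They made up 1.66% of the 1204 genes called higher on knockdown. Of all genes tested, 2.7% were lower on overexpression at an unadjusted p below 0.05, so this class was no larger than that share. ZSWIM1, a zinc-finger protein gene, had 5.63 and 5.58 FPKM with vector, 3.94 and 4 with overexpression, 5.5 and 5.93 in the knockdown control and 7.07 and 6.82 in the knockdown. Its controls lay together and the treated groups on either side, with a difference of -0.65 ± 0.10 (limma adjusted p = 0.00157). Also in this class were ZNF184 (-0.69), PPP1R3D (-0.66), MNS1 (-0.66) and MTF2 (-0.50). Of 19 alternatives, PPP1R3D stayed opposite in 16, MTF2 in 11, ZNF184 in 10 and MNS1 in 7, and the difference of MNS1 lost its call in 9 and that of MTF2 in 7.

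Immediate early genes had no opposite member, beside 123 of all 659 genes called above 0. Of 26 tested, 14 had a called difference, all above 0 (6.19% of all genes were). Of these 14, 12 had the knockdown effect alone, as did 481 of all 659 genes called above 0. The others, FOSL1 and EGR1, were lower on both overexpression and knockdown. The median gain effect was -0.04 and the median loss effect -0.40. ARC, a neuronal activity gene that is also induced by growth factors, had the largest difference of all genes with the knockdown effect alone. It had 0.281 and 0.239 FPKM with vector, 0.141 and 0.189 with overexpression, 17.5 and 19 in the knockdown control and 0.15 and 0.19 in the knockdown. Only the knockdown control was high. The difference was 3.92 ± 0.13 (limma adjusted p = 3.16e-09), the gain effect -0.11 (95% interval -0.31 to 0.09) and knockdown minus vector also -0.11.

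FOS, a subunit of the AP-1 transcription factor, had 0.916 and 1.3 FPKM with vector, 1.18 and 1.35 with overexpression, 16.2 and 16 in the knockdown control and 2.33 and 2.52 in the knockdown. Its knockdown stayed above vector by 0.71, unlike ARC. FOSB, EGR4 and ATF3 had differences of 1.99, 2.33 and 1.75 with gain effects of -0.13, 0.03 and -0.03. Their knockdown control stood above vector by 2.64, 2.66 and 1.49. EGR1, a zinc-finger transcription factor, had 5.29 and 3.98 FPKM with vector, 3.06 and 3.73 with overexpression, 56.6 and 59.3 in the knockdown control and 29 and 26.6 in the knockdown. Here both knockdown-side groups were far above the vector side, and the loss effect of -1.04 exceeded the gain effect of -0.35. JUNB and MYC had no called difference, at 0.26 and 0.13. Other genes with the knockdown effect alone and high values only in the knockdown control were VGF, a secreted neuropeptide precursor (2.0), and SNAI1, a repressor of epithelial genes (1.81).

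**Figure D3:**
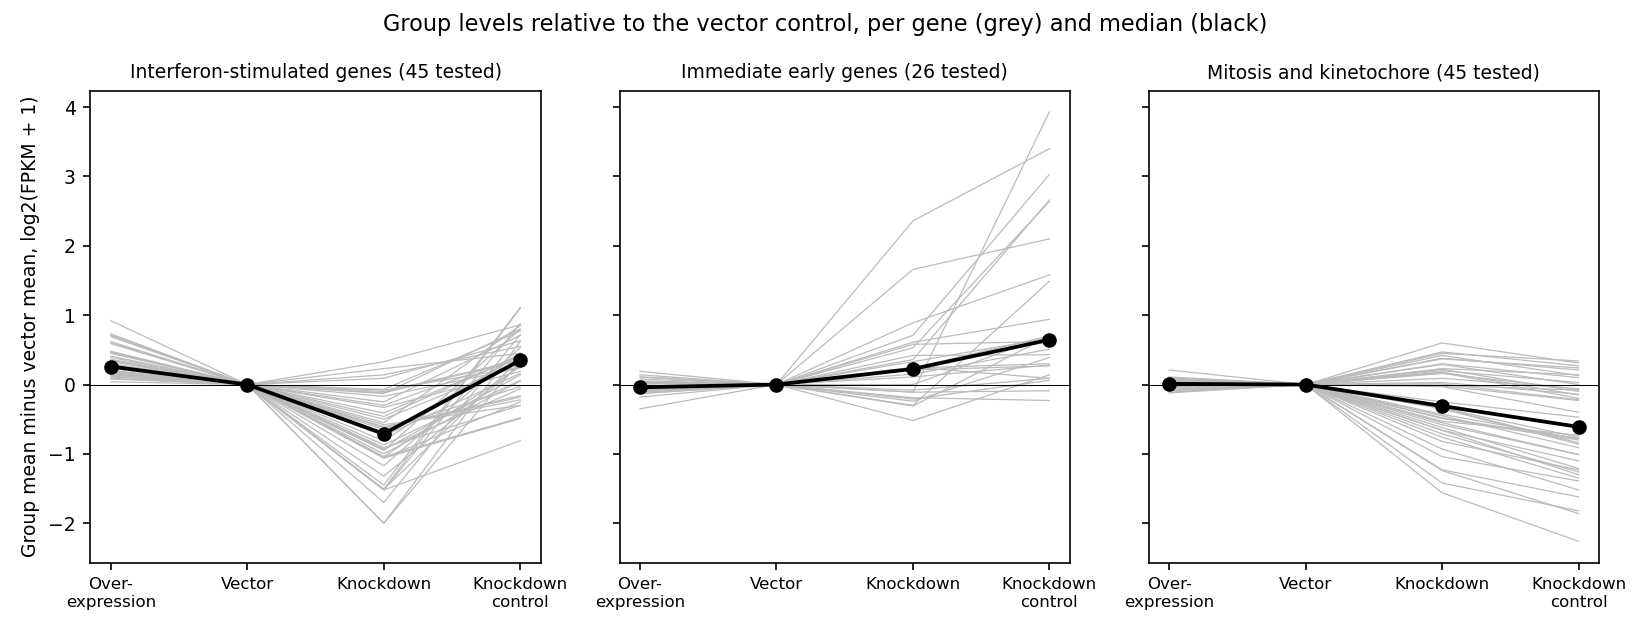
Mean level of each group minus the vector mean, on the log2(FPKM + 1) scale, for the tested members of 3 gene lists; grey lines are genes and the black line is the median. Interferon-stimulated genes have a median of 0.26 with overexpression and -0.71 in the knockdown, immediate early genes -0.04 and 0.22, and mitosis genes 0.01 and -0.31; the knockdown control medians are 0.35, 0.65 and -0.61.

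Set against the vector control, the lists were as follows. Among interferon-stimulated genes 36 of 45 were lower in the knockdown than with vector (28.8% of all genes tested were lower) and 30 were higher in the knockdown control (36.8% of all were higher). Among immediate early genes 7 of 26 were lower in the knockdown than with vector, 13 were higher (34.1% of all were higher), and 20 were higher in the knockdown control. These comparisons share the vector or knockdown control libraries with the gain and loss effects, so they are given beside them and are no independent evidence.

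Of 27 tested genes in the p53 list, of DNA damage and arrest genes, 15 had a called difference, all above 0 (6.19% of all genes were). AEN was opposite, 13 had the knockdown effect alone (481 of all 659 genes called above 0 did), and GADD45B was lower in both comparisons. GADD45A, a growth arrest gene, had 76.2 and 81.4 FPKM with vector, 78.4 and 77.6 with overexpression, 181 and 196 in the knockdown control and 62.1 and 65.2 in the knockdown. Its difference was 1.54 ± 0.07 and its gain effect -0.02 (95% interval -0.12 to 0.09). CDKN1A, the cell-cycle inhibitor p21, had a difference of 0.62 and a gain effect of -0.03. The list of the integrated stress response and the unfolded protein response had 32 tested genes, of which 10 had a difference called above 0 (6.19% of all genes) and 1 below (4.02%). DDIT3, a stress-induced transcription factor, had 41.7 and 43.1 FPKM with vector, 40 and 44.3 with overexpression, 156 and 157 in the knockdown control and 90.3 and 88.9 in the knockdown.

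Many genes of mitosis had a difference below 0. Of 45 tested, 31 had a difference called below 0 (4.02% of all genes were) and none above 0. All 31 had the knockdown effect alone, as did 379 of all 428 genes called below 0. Without a filter 19 were called below 0. The median gain effect was 0.01 and the median loss effect 0.32. CENPF, a kinetochore protein, had 37.6 and 38.1 FPKM with vector, 39 and 38.3 with overexpression, 7.26 and 7.03 in the knockdown control and 12.6 and 11.8 in the knockdown. The knockdown control was the lowest group and the knockdown lay between it and vector. CENPF had a difference of -0.67 ± 0.07 (limma adjusted p = 0.000148). TOP2A, the topoisomerase that untangles chromosomes, had 131 and 137 FPKM with vector, 136 and 135 with overexpression, 56.6 and 51.5 in the knockdown control and 85.2 and 83.3 in the knockdown, a difference of -0.62 ± 0.07. CCNB1, the mitotic cyclin B1, was ordered otherwise, with 133 and 137 FPKM with vector, 148 and 148 in the knockdown control and 179 and 183 in the knockdown. Of 40 replication genes 3 were called below 0, beside 4.02% of all genes, with 1 to 8 under the other scalings, voom, no filter or a correction for length and GC content. Of 36 DNA repair genes 5 were called below 0, with 2 to 12 under the same alternatives. The lists were not tested against each other.

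Length and base composition moved with the loss effect. Across tested genes the Spearman correlation of the loss effect was 0.29 with transcript length and -0.46 with GC content, against -0.08 and 0.13 for the gain effect. Genes are not independent replicates, and these values are a description. After a correction for both, 20 of the 45 mitosis genes had a difference called below 0, and their median difference went from -0.33 to -0.25. Over all genes the number called below 0 went from 428 to 203. After the same correction 43 of the 45 interferon-stimulated genes had a difference called above 0, and 37 of the 45 were in the opposite classes.

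**Figure D4:**
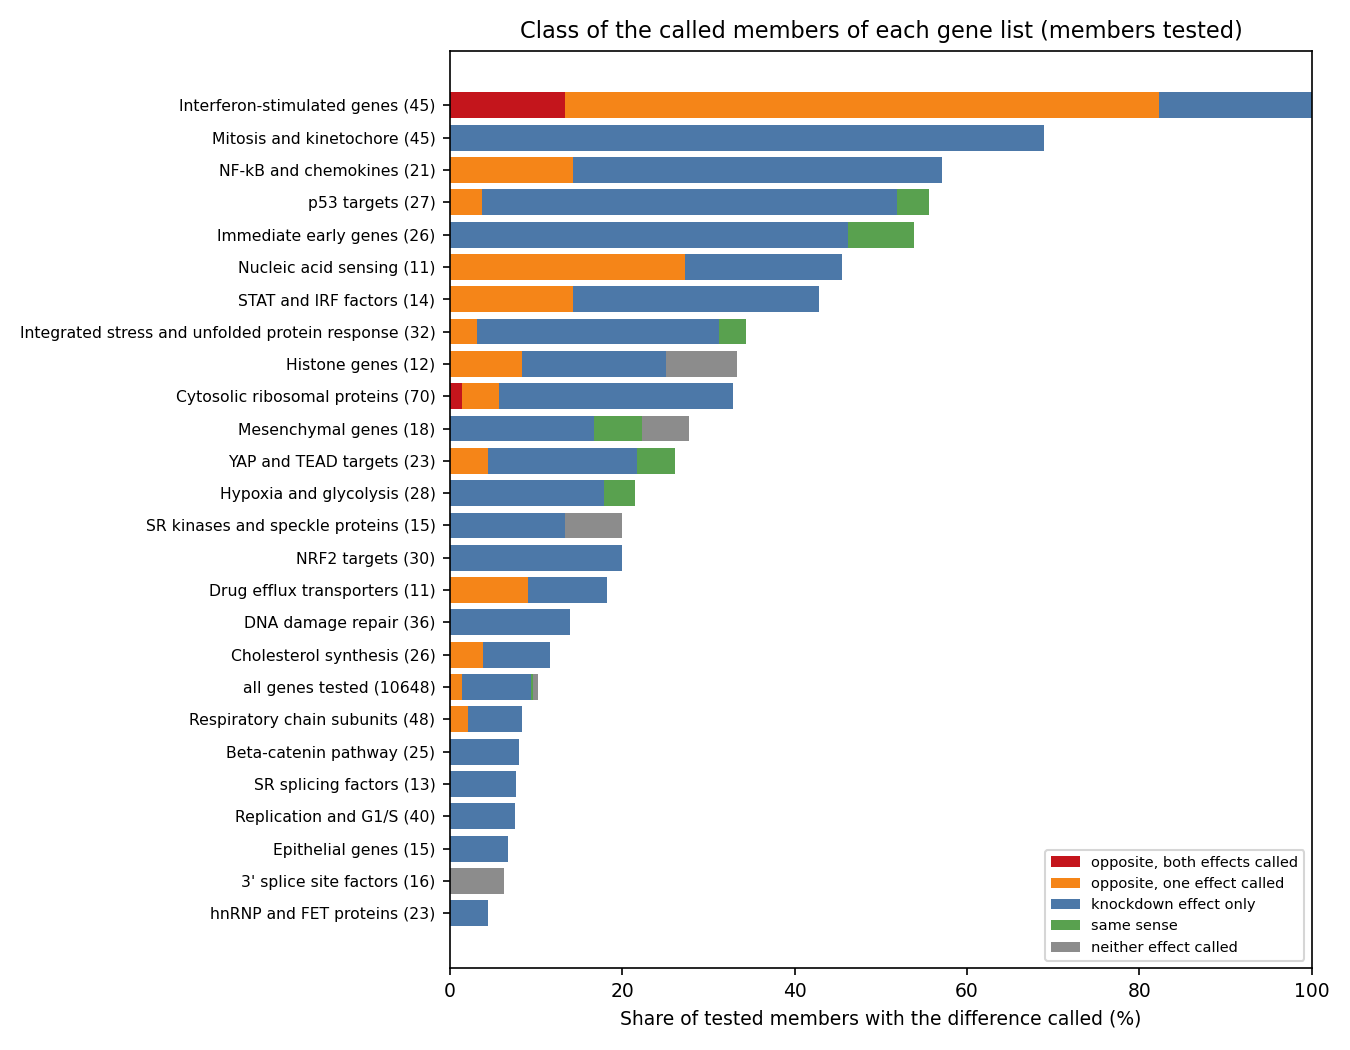
Share of the tested members of each gene list with a called difference, divided by class; the number tested is in brackets, and lists with under 10 tested members are left out. The interferon-stimulated bar reaches 100% and is mostly in the opposite classes, with 37 of 45, whereas the mitosis bar is 31 of 45 and in the knockdown class alone. Of all 428 genes called below 0, 379 were in that knockdown class.

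Several other lists had counts that moved with the processing. Of 70 cytosolic ribosomal protein genes, 23 had a difference called above 0 (6.19% of all genes) and none below, with a median of 0.15. The number above 0 was 6 without a filter, 14 with median-of-ratios scaling, 15 with quantile scaling (and 2 below) and 36 with voom. RPS28, RPS12, RPS21 and RPS27A were opposite, and 4 to 9 genes of the list were under these alternatives. Respiratory chain genes had 4 of 48 called above 0, near the share of all genes, and 2 to 6 under the alternatives. Of 30 NRF2 targets 6 were called below 0 (4.02% of all genes), with 4 without a filter, 13 with quantile scaling and 14 with TPM scaling. Of 26 cholesterol synthesis genes 3 were called below 0, and 0 without a filter. Among genes named by the title of the series, SRSF11 was the sole called member of 13 tested SR splicing factors, at -0.27, and it lost the call in 13 of 20 alternatives. After the length and GC correction 0 of the 13 were called below 0 and 1 above, with a median of 0.06. AXIN2, an inhibitor of Wnt signalling, had 2.98 and 3.03 FPKM with vector, 3.35 and 3.48 with overexpression, 1.71 and 1.21 in the knockdown control and 2.22 and 2.63 in the knockdown. Its difference was -0.34 ± 0.15 and not called (limma adjusted p = 0.166), although the loss effect of 0.48 was called. Values per gene say nothing of splicing.

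AFAP1, the actin filament-associated protein gene on the strand opposite to AFAP1-AS1, belonged to the 69 genes with a called difference and no called effect. It had 9.82 and 9.1 FPKM with vector, 13.4 and 13.2 with overexpression, 10.9 and 11.3 in the knockdown control and 8.88 and 10.3 in the knockdown. Overexpression was the highest group. The loss effect was -0.20 (limma unadjusted p = 0.018), of opposite sign to the gain effect, and the knockdown libraries lay wholly below their control. The knockdown control stood above vector by 0.21 (limma adjusted p = 0.0207). After the length and GC correction, and with voom, AFAP1 was in the opposite classes. The difference was 0.65 ± 0.10 (limma adjusted p = 0.00206), with 69.8% of it from the gain effect of 0.45 (limma adjusted p = 0.0542). No source used here names a strand setting for the counting, so reads of AFAP1 and of its antisense partner cannot be told apart. U2AF1, a splicing factor with a near-identical copy in the genome, had 9.46 and 8.93 FPKM with vector, 0.821 and 1.82 with overexpression, 1.14 and 0.977 in the knockdown control and 5.51 and 0.833 in the knockdown. The knockdown libraries disagreed with each other, and its difference of -2.92 ± 0.58 is uncertain.

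The absence of a called gain effect did not fix that effect at 0. Over the 860 genes with the knockdown effect alone, the 95% interval of the gain effect had a median reach of 0.13 to either side. It left out a gain effect equal and opposite to the loss effect in 808 genes and held one in 52. In 386 genes it held a gain effect of 50% of that size. The sign of the gain effect was opposite to the loss effect in 610 of the 860 (70.9%). These genes were picked by a called difference, which itself favours opposite signs, so that share cannot show opposite movement. Without that pick, the median gain effect was 0.01 over the 1165 genes called lower on knockdown and -0.0 over the 1204 called higher. Seen from the other side, 450 genes were higher on overexpression at an unadjusted p below 0.05. Of these, 123 (27.3%) were among the 1165 called lower on knockdown, which were 10.9% of all genes tested. They made up 10.6% of the 1165. Another 29 (6.4%) were among the 1204 called higher, which were 11.3% of all genes tested. Of the 288 genes lower on overexpression at that level, 56 (19.4%) were also called lower on knockdown, and 20 (6.9%) were called higher. Among the 76 genes lower on knockdown by 1 or more on the log2 scale, 25 (32.89%) were higher on overexpression at that level and 4 (5.26%) were lower. Over all genes tested, 4.23% were higher and 2.7% were lower. Across all 10648 genes, Pearson's r between the gain and loss effects was -0.12 and Spearman's rho -0.05, as a description across genes of the same libraries.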

How the data were processed

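RNA of 8 A549 libraries was sequenced from total RNA with a commercial kit, per the labels' protocols. The authors deposited 1 table of FPKM values per gene and library. HISAT2, featureCounts, HTSeq, R 3.2.0 and the build hg38 (GRCh38) are listed in the submitters' processing notes, without the role of each. Annotation, strand setting and filters were not given in the sources used here. FPKM values are relative to each library's total, so they carry no absolute scale.

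Whole reads were recovered from the FPKM steps for 17054 of 17056 genes, within 0.02 reads, and used for depth and for an alternative test. Effects were fitted on log2(FPKM + 1) in limma 3.58.1 (R 4.3.3; eBayes with trend after lmFit and contrasts.fit, two-sided), over the 10648 genes whose mean reached 1 FPKM, with all 4 groups in the same fit. The call was a Benjamini-Hochberg adjusted p under 0.05 over all genes tested. An exact permutation test over 2 against 2 libraries cannot pass that threshold. Summaries used Python 3.11.15 and pandas 2.3.3. Transcript length and GC content came from GENCODE release 29 (99.8% of tested genes matched), and promoters from RefSeq (GRCh38.p14). The fit was tested on simulated data.

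The members, gene lists and naming rule were chosen with earlier results of these data known. Genes were named by class (all 7 with both effects called, the 10 largest differences in each sense of the others), as list members with small p, and AFAP1 and AXIN2. Some list members and class-boundary genes were named after their values were seen. Some genes that the rule names are not reported here. Alternatives were other pseudocounts, filters and scalings, a length and GC correction, a replicate block, voom on recovered reads, eBayes without trend, movement defined by libraries that do not overlap, the loss effect taken against vector, and each library left out.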

Additional observations from a re-analysis of the deposited data

How the results depend on the processing

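The difference of effects was called for 1087 genes. The count was 659 with eBayes without trend, 678 after the length and GC correction, 640 with that correction and a replicate block, and 1712 with voom on recovered reads (which shared 1003 with the 1087). Genes with both effects called and opposite numbered 4 without trend, 11 after the correction, 22 with voom and 473 when movement meant libraries that do not overlap. Without a filter limma gave 0, and all 7 were then opposite with a single effect called and the other at an unadjusted p below 0.05. Genes with the knockdown effect alone numbered 483 without trend, 494 after the correction, 460 with correction and block, 1432 with voom, 525 by libraries that do not overlap and 5571 when the loss effect was taken against vector. The overexpression effect alone gave 1 gene with the replicate block, 1 with correction and block and 1 with voom. It gave 4 by libraries that do not overlap. With so few libraries a group, that separation often arises by chance. The 473, 525 and 4 are therefore not counts of genes shown to move. The sum of effects was called for 587 genes without trend and 1570 with voom.

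Leaving out each library in turn gave 609 to 823 called differences, 5 to 9 opposite genes with both effects called, 94 to 150 with a single effect called, 448 to 635 with the knockdown effect alone, 0 to 2 with the overexpression effect alone and 548 to 731 called sums. The count moved from 1087 by over 1.5 times without knockdown control replicate 2 (644), knockdown replicate 1 (699) or replicate 2 (609), overexpression replicate 2 (635) or vector replicate 1 (661). The share of called differences above 0 was 60.6%, against 41.9% with TPM scaling, 46.7% with voom and 48.1% with median-of-ratios scaling. It was 70.1% after the correction, 72.0% with correction and block and 72.6% without a filter. The 72.6% is over all 17056 genes. Of the 10648 with a mean of at least 1 FPKM, 359 were then called above 0 and 210 below. Replicate numbers share only a number (correlations of deviations between -0.061 and 0.062), and the replicate block gave 1080 called differences.

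Of 124 named genes over 20 alternatives, 2218 of 2449 values kept their direction and side of the threshold, 204 lost the call, 27 gained it and 0 reversed. IFI6, IFIT2, IFIT3 and ISG15 had both effects called in 19 of 20, IFI27 and IFIT1 in 16 and RPS28 in 7, and all 7 stayed opposite in 20 of 20. U2AF1 lost its call without a filter, and AXIN2 gained one with voom (-0.57). With 2 libraries a group, small gain effects were not resolved.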
